A study of Mus musculus with 12 samples.

Results

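The genes described here act in mitosis and in the spindle assembly checkpoint. They were chosen by symbol, from a list of 41 mouse genes, and each was read from the probe set that the array annotation assigns to that gene alone and that had the highest mean over the 12 arrays. Of the 41 genes, 40 had such a probe set, out of 18193 genes represented in the same way, and all 40 passed the filter on low values. Ccnb1, the gene of cyclin B1, was not analysed here.

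Mouse embryonic stem cells were differentiated as embryoid bodies in hanging drops, and the bodies were dissociated on day 6. The cells carried a dsRed reporter described as specific for the second heart field, the progenitor field that adds cells to the heart tube, and an eGFP reporter driven by a cardiac-specific enhancer. Cells were sorted by fluorescence into double-positive (dsRed+ eGFP+), red-only (dsRed+ eGFP-), green-only (dsRed- eGFP+) and double-negative (dsRed- eGFP-) populations. Each population was profiled on 3 Affymetrix arrays, 1 from each of the experiments A, B and C, from 5 ug of total RNA per array. All 12 samples share the stem cell background, both transgenes and the day of collection. The labels do not name the stem cell line, the gene from which either enhancer was taken, or whether the 3 experiments were separate differentiations, so the p-values below measure the spread between these arrays. Double-negative cells are whatever cells of the bodies showed neither colour, and are not a defined cell type. The sorted samples were bulk RNA, in which fewer dividing cells and less of a transcript per cell cannot be told apart.

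Entry into mitosis is driven by CDK1 bound to A- and B-type cyclins, aided by the Polo and Aurora kinases. The spindle checkpoint holds CDC20 until every kinetochore has attached to microtubules; CDC20 then activates the anaphase-promoting complex, which has cyclin B and securin destroyed. Most of these transcripts accumulate in G2 and M phase, and heart muscle cells divide less as they mature.

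Many genes of this kind carry a cell cycle homology region (CHR), bound by MuvB-containing complexes, together with CCAAT boxes, bound by NF-Y. The RefSeq promoter table (build GRCm38.p6), with 250 bases before and 50 bases after each start site, held 33 of the 41 genes. The CHR letters TTTGAA, searched on both strands, were in the window of 25 of these 33 genes (75.8%). Among all 10990 tested genes with a window the share was 14.2%, and among all 27025 genes in the table it was 20.2%. CCAAT, on both strands, was also in 25 of the 33 windows (75.8%), against 41.9% of the tested genes. Both were in 22 (66.7%, against 5.6% of the tested genes), and the rarer CHR form TTCGAA was in 3. Neither TTTGAA nor CCAAT was found for 5 of the 33. TTTGAA lay wholly before the start site in 13 genes; in the other 12 every copy lay after the start site or across it. These are matches of letters, not measured binding.

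The 120 bases before the start site are printed for 7 of the genes, 5′ to 3′ on the strand of the gene, with TTTGAA and CCAAT (or their reverse complements) in capitals. Cdc20, Kif11 and Top2a hold both elements, and all 3 were lower in double-positive than double-negative cells. Cdk1, Ube2c and Prc1 hold both elements too and did not pass that test. Mad2l1 holds neither in this stretch and was lower. The stretches are chr4:118437344-118437463 (minus strand) for Cdc20, chr19:37376262-37376381 (plus) for Kif11, chr11:99024190-99024309 (minus) for Top2a, chr10:69352913-69353032 (minus) for Cdk1, chr2:164769809-164769928 (plus) for Ube2c, chr7:80294356-80294475 (plus) for Prc1 and chr6:66535101-66535220 (plus) for Mad2l1.
Cdc20: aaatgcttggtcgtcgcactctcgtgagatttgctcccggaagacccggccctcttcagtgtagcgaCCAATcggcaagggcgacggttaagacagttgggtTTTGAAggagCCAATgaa
Kif11: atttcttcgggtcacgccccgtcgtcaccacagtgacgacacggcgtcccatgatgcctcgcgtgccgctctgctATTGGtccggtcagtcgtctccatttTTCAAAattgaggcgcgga
Top2a: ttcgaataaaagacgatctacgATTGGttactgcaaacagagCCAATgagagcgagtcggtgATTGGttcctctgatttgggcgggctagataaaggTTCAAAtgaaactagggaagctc
Cdk1: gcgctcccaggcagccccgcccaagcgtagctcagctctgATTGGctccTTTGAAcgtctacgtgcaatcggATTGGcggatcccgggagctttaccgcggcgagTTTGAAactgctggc
Ube2c: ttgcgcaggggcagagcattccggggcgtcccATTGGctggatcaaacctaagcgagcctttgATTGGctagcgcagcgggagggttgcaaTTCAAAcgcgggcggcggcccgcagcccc
Prc1: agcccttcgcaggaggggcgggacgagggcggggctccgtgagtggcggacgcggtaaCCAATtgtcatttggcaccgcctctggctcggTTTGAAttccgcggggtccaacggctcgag
Mad2l1: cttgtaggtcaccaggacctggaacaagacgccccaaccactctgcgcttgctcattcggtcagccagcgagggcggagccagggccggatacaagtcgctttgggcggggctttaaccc
The nearest TTTGAA began 18 bases before the start site in Cdc20, 19 in Kif11, 23 in Top2a, 15 in Cdk1, 29 in Ube2c and 30 in Prc1. Prc1 has 2 start sites in the table, and from the other one TTTGAA begins 5 bases before the start and runs across it. Of the 25 genes with a TTTGAA match, 18 were lower in double-positive than double-negative cells, with a median log2 difference of -0.46 (range -1.04 to -0.06). All 7 measured genes with a window but no TTTGAA were lower, with a median of -0.60 (range -1.25 to -0.33). Bub1, at -1.25, is among these 7 and holds the rarer CHR form TTCGAA after its start site. Of all genes tested, 17.6% were lower in this comparison. No test compared the genes with and without TTTGAA.

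The comparison of double-positive with double-negative cells asks how far the mitotic genes differ between cells with both cardiac reporters and cells with neither. Transcripts of the mitotic machinery were lower in double-positive cells: 32 of the 40 genes fell, none rose, and the other 8 did not pass the test. Over all 13698 genes tested, 17.6% were lower and 13.9% higher in this comparison. The median log2 difference of the 40 genes was -0.54 (range -1.25 to -0.06), against -0.01 for all genes tested, and the double-positive mean lay at between 39.8% and 95.7% of the double-negative mean. In 37 of the 40 genes all 3 double-positive arrays lay below all 3 double-negative arrays, as in 24.5% of all genes tested. In 38 the double-positive array was the lower one in each of the 3 experiments, a share not computed over all genes tested. The 8 genes that did not pass were Cdk1, Ube2c, Cenpa, Kif4, Prc1, Anln, Smc2 and Foxm1. With each array left out in turn the count stayed between 27 and 32; Kif20a, Kif22, Kif23, Mad2l1, Ndc80, Nuf2 and Nusap1 lost the call in at least 1 of these fits.

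Each reporter alone went with a smaller median difference. Red-only cells had 27 of the 40 genes lower than double-negative cells and none higher, where 12.7% of all genes tested were lower and 10.9% higher. Their median was -0.35 on the log2 scale, and in 32 genes the arrays did not overlap (20.6% of all genes tested). Without double-negative array A or red-only array B the count was 18. Cenpa, Mad2l1 and Kif22 (adjusted p = 0.041) also passed with the experiment as a block. Green-only cells had 15 genes lower and none higher, where 11.4% of all genes tested were lower and 9.33% higher. Here the median was -0.24, and 21 genes did not overlap (17.7% of all genes tested). Without array A of double-negative cells, or without array B of green-only cells, the green-only count was 8. With the block Top2a and Cenpf (adjusted p = 0.012) passed too. These 3 comparisons share the double-negative arrays and are therefore not independent of each other. Over the 4 populations together, the F-test called 31 of the 40 genes, where 32.3% of all genes tested were called.

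**Figure D1:**
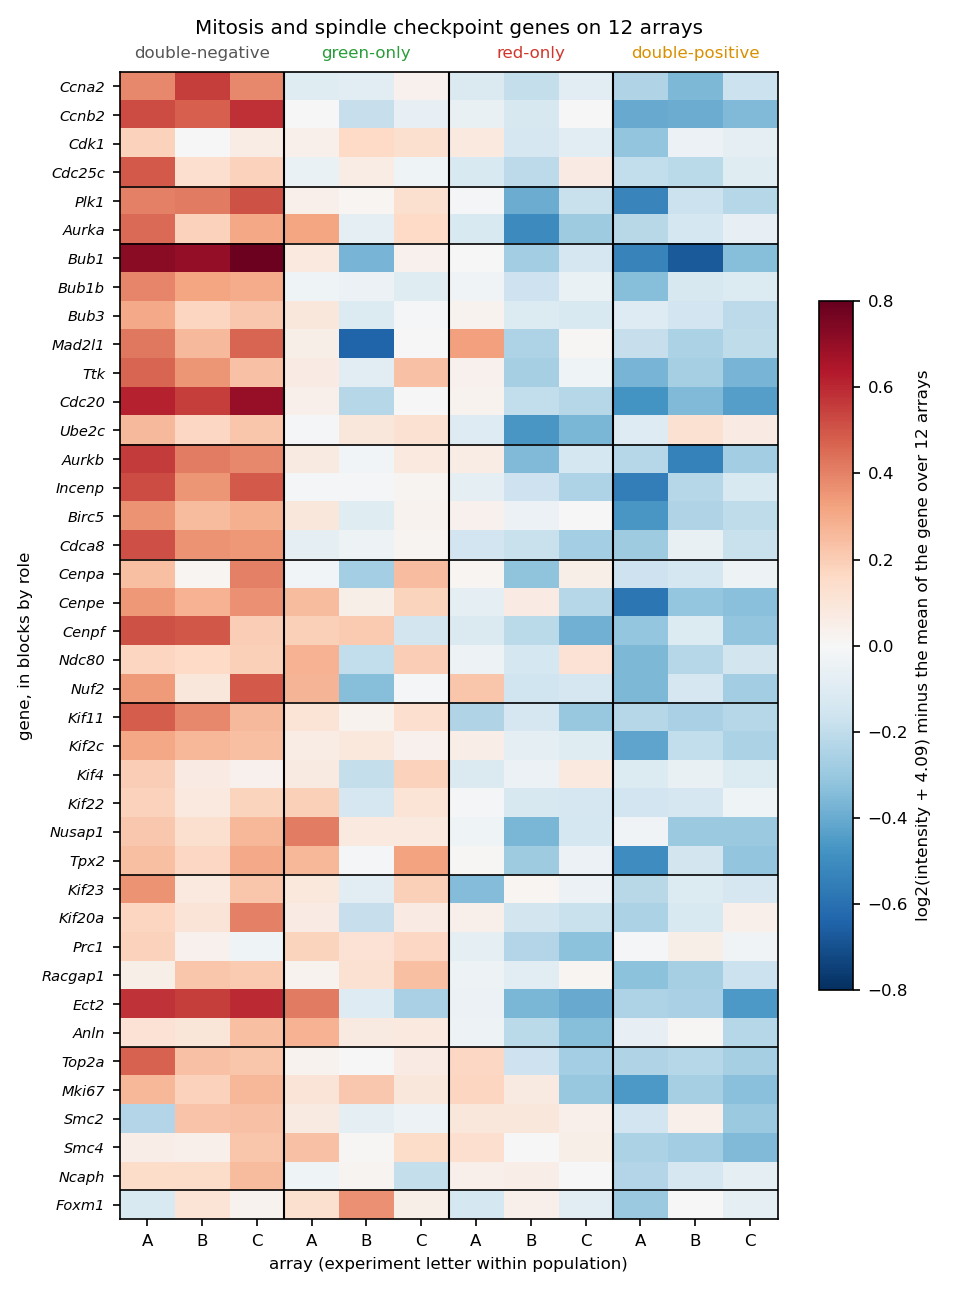
Heat map of the 40 genes (vertical axis, in blocks by role) on the 12 arrays (horizontal axis, by population and experiment); colour is log2(intensity + 4.095) minus the mean of the gene over the 12 arrays. The double-negative columns are mostly red and the double-positive columns mostly blue, with the single-reporter populations between them.

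Among the genes that drive mitotic entry, the mitotic cyclins fell and Cdk1 did not pass the test. The intensity of Ccnb2, cyclin B2, was 138, 134 and 144 in double-negative cells on arrays A, B and C, 95.0, 83.3 and 90.9 among green-only, 91.3, 86.8 and 95.4 among red-only, and 70.9, 71.5 and 73.8 among double-positive cells. The double-negative arrays were the highest and the double-positive arrays the lowest, with no overlap, while green-only and red-only arrays overlapped each other. Its difference from double-negative cells on the log2 scale was -0.91 ± 0.07 (SE; adjusted p = 9.6e-07) in double-positive, -0.59 ± 0.07 (adjusted p = 8.5e-05) in red-only and -0.61 ± 0.07 (adjusted p = 6.5e-05) in green-only cells.

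Cdk1, the catalytic partner of these cyclins, gave 569.5, 504 and 522 in double-negative, 516, 561 and 549.7 among green-only, 529.8, 456 and 472 among red-only, and 403, 485 and 478 among double-positive cells. The double-positive arrays were all below the double-negative ones, but by little, and the green-only arrays overlapped the double-negative ones. The log2 difference was -0.23 ± 0.09 (adjusted p = 0.080) in double-positive and 0.03 ± 0.09 (adjusted p = 0.89) in green-only cells. Ccna2, cyclin A2, fell from 291 ± 20.5 (SD, n = 3) in double-negative to 178 ± 11.7 (n = 3) in double-positive cells (log2 difference -0.70). Cdc25c, a phosphatase that activates CDK1, fell from 38.5 ± 5.83 to 27.2 ± 1.37 (log2 difference -0.44). Its probe set type can share probes with other transcripts, and a second, dimmer probe set gave -0.18 and was not called (adjusted p = 0.15).

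Plk1 and Aurka, kinases of spindle assembly, both fell in double-positive cells. Plk1, the Polo kinase of spindle assembly and mitotic exit, gave 192, 193 and 206 in double-negative, 148, 145 and 157 among green-only, 143, 108 and 126 among red-only, and 98.2, 127 and 122 among double-positive cells. Every array of the other populations lay below the double-negative arrays, and red-only and double-positive arrays overlapped. The log2 difference from double-negative cells was -0.75 ± 0.11 (adjusted p = 0.00017) in double-positive, -0.64 ± 0.11 (adjusted p = 0.0010) in red-only and -0.38 ± 0.11 (adjusted p = 0.025) in green-only cells. The green-only call was lost without any 1 of the double-negative arrays or green-only array B (adjusted p 0.054 to 0.084). Aurka, Aurora A of the centrosome and spindle pole, was at 142 ± 13.6 in double-negative, 90.8 ± 12.5 in red-only and 102 ± 5.59 in double-positive cells. It fell in double-positive (-0.46) and red-only cells (-0.62), and did not pass in green-only cells (125 ± 17.3, -0.18).

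Of the 7 checkpoint genes and their targets, 6 fell with both reporters, 6 with dsRed alone and 5 with eGFP alone. Over all genes tested, 17.6%, 12.7% and 11.4% were lower in these comparisons. Bub1, a kinase that recruits the other checkpoint proteins to kinetochores, had the largest difference of the 40 genes. Its intensity was 96.5, 95.6 and 101 in double-negative, 60.5, 43.2 and 58.6 among green-only, 57.2, 46.4 and 51.5 among red-only, and 38.1, 34.4 and 44.2 among double-positive cells. No array of the other populations reached the double-negative range. Its log2 difference came to -1.25 ± 0.12 (adjusted p = 6.3e-06) in double-positive, -0.87 ± 0.12 (adjusted p = 0.00023) in red-only and -0.82 ± 0.12 (adjusted p = 0.00042) in green-only cells. A second Bub1 probe set, whose mean of 5.99 lay below the 6.52 median of all values, gave -0.14 in double-positive cells and was not called (adjusted p = 0.15), nor was it in the populations with 1 reporter (adjusted p = 0.092 and 0.16).

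Cdc20, the activator of the anaphase-promoting complex that the checkpoint restrains, had the next largest difference. It gave 420.2, 402 and 444 in double-negative, 281, 232 and 273 among green-only, 279, 237 and 233 among red-only, and 194, 213 and 199.8 among double-positive cells. The double-negative arrays stood clear of all others, and the double-positive arrays were the lowest. Against double-negative cells, the difference on the log2 scale was -1.04 ± 0.09 (adjusted p = 3.0e-06) in double-positive, -0.75 ± 0.09 (adjusted p = 9.7e-05) in red-only and -0.68 ± 0.09 (adjusted p = 0.00021) in green-only cells. Its other 2 probe sets gave -1.09 and -0.72 in double-positive cells, both called.

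Bub1b, which encodes BUBR1, an inhibitor of CDC20, gave 174, 165 and 163 in double-negative, 129, 128 and 123 among green-only, 129, 117 and 127 among red-only, and 103, 120.1 and 122 among double-positive cells. The double-negative arrays did not overlap with any other, whereas the single-reporter arrays overlapped each other. It fell by 0.53 ± 0.08 on the log2 scale in double-positive cells (adjusted p = 0.00021), and it fell by 0.42 ± 0.08 with dsRed alone (adjusted p = 0.0018) and by 0.39 ± 0.08 with eGFP alone (adjusted p = 0.0032). Mad2l1, which encodes MAD2, the protein that captures CDC20, varied more between arrays. Its intensity was 108, 95.8 and 111 in double-negative, 82.3, 49.5 and 79.2 among green-only, 101, 66.4 and 80.1 among red-only, and 69.5, 66.0 and 68.6 among double-positive cells. Green-only array B was the lowest of all 12, and red-only array A overlapped the double-negative arrays. The log2 difference was -0.60 ± 0.17 (adjusted p = 0.017) in double-positive, -0.35 ± 0.17 (adjusted p = 0.17) in red-only and -0.58 ± 0.17 (adjusted p = 0.028) in green-only cells. Blocking on the experiment brought the red-only difference past the threshold (adjusted p = 0.044). Leaving out double-negative array A, double-negative array C or double-positive array B gave adjusted p = 0.052, 0.059 and 0.052 in double-positive cells. In green-only cells the call was lost without double-negative array A or C or green-only array B (adjusted p 0.0817 to 0.0985).

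Bub3, a kinetochore partner of BUB1 and BUBR1, had smaller differences. Its arrays read 444, 406 and 418 in double-negative, 384, 334 and 358 among green-only, 368, 334 and 331 among red-only, and 335, 322 and 310.0 among double-positive cells. All arrays of the other populations were below the double-negative ones. Its log2 difference came to -0.39 ± 0.08 (adjusted p = 0.0019) in double-positive, -0.29 ± 0.08 (adjusted p = 0.014) in red-only and -0.24 ± 0.08 (adjusted p = 0.047) in green-only cells. The red-only call was lost without double-negative array A or red-only array B or C (adjusted p 0.0528 to 0.0615), and the green-only call was lost in most such fits, with adjusted p up to 0.17. Its second probe set was called in red-only cells (-0.36) but not in double-positive cells (-0.09, adjusted p = 0.43). Ttk, the MPS1 kinase that starts checkpoint signalling, fell from 66.9 ± 5.74 to 39.9 ± 1.9 in double-positive cells (-0.69).

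Ube2c, the ubiquitin-conjugating enzyme of the anaphase-promoting complex, had another pattern. Its intensity was 335, 313 and 325 in double-negative, 276, 297 and 303 among green-only, 259.5, 200.5 and 215 among red-only, and 259.5, 304 and 291 among double-positive cells. The red-only arrays were the lowest apart from array A, which tied with double-positive array A. It fell in red-only cells (-0.53 ± 0.10, adjusted p = 0.0016), and was at -0.19 ± 0.10 (adjusted p = 0.18) in double-positive and -0.15 ± 0.10 (adjusted p = 0.33) in green-only cells. Double-positive cells were above red-only cells by 0.34 ± 0.10 (adjusted p = 0.037), a call lost without any of 5 arrays (double-negative C, double-positive B and C, red-only B and C; adjusted p 0.051 to 0.15).

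**Figure D2:**
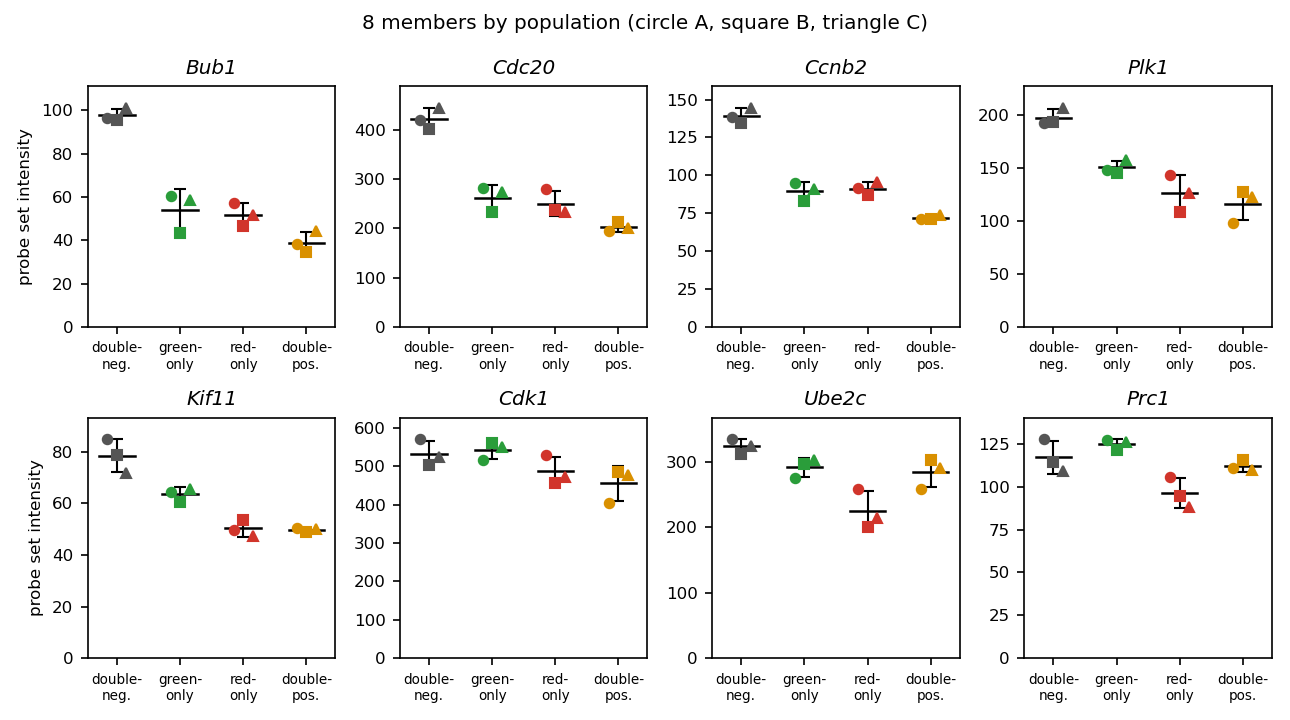
Probe set intensity (linear vertical axes from 0) of 8 of the genes by population; symbols are the arrays of experiments A, B and C, horizontal lines the mean of 3 arrays and error bars the SD. Bub1, Cdc20, Ccnb2 and Plk1 are highest in double-negative cells, Kif11 is at about the same level in red-only and double-positive cells, and Cdk1, Ube2c and Prc1 did not pass the test between double-positive and double-negative cells.

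The chromosomal passenger complex, which corrects faulty kinetochore attachments, fell in all 4 of its subunits in each comparison with double-negative cells. Aurkb, its kinase Aurora B, gave 66.1, 59.1 and 57.9 in double-negative, 45.9, 42.8 and 46.2 among green-only, 45.5, 33.1 and 39.1 among red-only, and 36.4, 28.6 and 35.2 among double-positive cells. All arrays of the other populations were below the double-negative ones, and those of red-only cells overlapped with both neighbours. Against double-negative cells, the difference on the log2 scale was -0.80 ± 0.11 (adjusted p = 0.00011) in double-positive, -0.60 ± 0.11 (adjusted p = 0.0017) in red-only and -0.41 ± 0.11 (adjusted p = 0.019) in green-only cells. The green-only call was lost without double-negative array A (adjusted p = 0.080) or green-only array B (adjusted p = 0.067). With the second, dimmer probe set the red-only and green-only calls were both lost (adjusted p = 0.26 and 0.11), and the double-positive call held. Incenp, the scaffold, fell from 198 ± 12.5 to 116 ± 17.99 in double-positive cells (-0.76). The dimmer Incenp probe sets past the filter, each fitted on its own, gave -0.55, -0.37 and 0.12 there (adjusted p = 0.0011, 0.0093 and 0.51). In red-only cells only the first of these was called (adjusted p = 0.034, 0.078 and 0.99). In green-only cells none was called (adjusted p = 0.10, 0.20 and 0.54). Birc5, which encodes survivin, fell from 229.9 ± 8.53 to 150.4 ± 14.9 (-0.60), and Cdca8, which encodes borealin, from 312 ± 20.9 to 207 ± 16.4 (-0.58). The Birc5 call was lost in red-only cells without double-negative array A or red-only array B (adjusted p = 0.071 and 0.064), and in green-only cells without any of 4 arrays (double-negative A and C, green-only B and C; adjusted p 0.054 to 0.10).

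At the centromere and kinetochore, 4 of 5 genes fell in double-positive cells, 2 with dsRed alone and none with eGFP alone. Over all genes tested the lower shares were 17.6%, 12.7% and 11.4% in these comparisons, so counts of 0 or 1 in this and the following groups of 5 or 6 genes are near the background. Cenpa, the histone H3 variant that marks centromeres, gave 203, 173 and 228 in double-negative, 168, 141 and 204 among green-only, 173, 136 and 177 among red-only, and 152, 155 and 166 among double-positive cells. Array B was the lowest in each population but double-positive cells, and the green-only and red-only arrays overlapped the double-negative ones. The log2 difference was -0.34 ± 0.14 in double-positive cells (adjusted p = 0.088) and -0.31 ± 0.14 in red-only cells (adjusted p = 0.14). With the experiment as a block both passed the test (adjusted p = 0.0092 and 0.020), and the first also passed without double-negative array B (adjusted p = 0.047). Cenpe, a kinesin that moves chromosomes to the spindle equator, fell from 64.7 ± 2.15 to 37.3 ± 4.11 in double-positive cells (-0.74), and Cenpf from 145 ± 17.7 to 91.2 ± 7.85 (-0.65). Ndc80 and Nuf2, partners in the complex that grips microtubules, had log2 differences of -0.42 ± 0.12 and -0.56 ± 0.15 there. The Ndc80 call was lost without double-positive array A (adjusted p = 0.056) and the Nuf2 call without double-negative array C (adjusted p = 0.061).

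Among the spindle motors and microtubule proteins, 5 of 6 fell in double-positive cells, 4 with dsRed alone and 1 with eGFP alone. Kif11, the kinesin that pushes the spindle poles apart, gave 84.8, 78.8 and 71.9 in double-negative, 64.6, 60.7 and 65.7 among green-only, 49.8, 53.8 and 47.4 among red-only, and 50.3, 49.1 and 50.2 among double-positive cells. Green-only arrays lay between the double-negative arrays and the others with no overlap, and red-only and double-positive arrays overlapped. Its log2 difference came to -0.61 ± 0.08 (adjusted p = 5.1e-05) in double-positive, -0.60 ± 0.08 (adjusted p = 0.00012) in red-only and -0.28 ± 0.08 (adjusted p = 0.019) in green-only cells. The green-only call was lost without double-negative array A or B or green-only array B (adjusted p 0.052 to 0.085), and with the second probe set (adjusted p = 0.28). Kif2c, which depolymerises microtubules at centromeres, fell from 98.3 ± 2.51 to 65.4 ± 5.51 (-0.56). Tpx2, which activates Aurora A at the spindle, fell from 69.5 ± 3.53 to 46.1 ± 6.05 (-0.56). The Tpx2 probe sets disagreed when each was fitted on its own. A dimmer one was lower in double-positive cells (-0.41, adjusted p = 0.0046), and others were not (0.10 and -0.004, adjusted p = 0.76 and 0.99). Nusap1 and Kif22, which bind microtubules and chromosomes, had log2 differences of -0.41 ± 0.12 and -0.25 ± 0.09 and adjusted p = 0.015 and 0.043. Both calls were lost when single arrays were left out, with adjusted p up to 0.062 for Nusap1 and 0.12 for Kif22. Kif4, a chromokinesin, was at 49.1 ± 3.18 and 42.5 ± 0.983 (-0.19, adjusted p = 0.16).

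In the group of the spindle midzone and cytokinesis, 4 of 6 genes fell in double-positive cells, 5 with dsRed alone and 1 with eGFP alone. Ect2, the exchange factor that switches on RhoA at the cleavage site, fell from 36.5 ± 0.645 in double-negative to 17.7 ± 1.75 in double-positive cells (-0.90 ± 0.15, adjusted p = 0.00044) and 18.6 ± 3.18 in red-only cells (-0.85 ± 0.15, adjusted p = 0.0011). It also fell in green-only cells (-0.56 ± 0.15, adjusted p = 0.016), a call lost without green-only array B or C (adjusted p = 0.065 and 0.074). Kif23 and Racgap1, which form the centralspindlin complex, had log2 differences of -0.38 ± 0.11 and -0.41 ± 0.08 in double-positive cells. Kif23 lost that call without double-negative array A or double-positive array A (adjusted p = 0.081 and 0.063). Kif20a, a midzone kinesin, was at -0.34 ± 0.11 (adjusted p = 0.031) and lost the call without double-negative array C or double-positive array A or B (adjusted p up to 0.13).

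Prc1, which bundles the microtubules of the midzone, had the smallest difference between double-positive and double-negative cells. Its arrays read 128, 114 and 109 in double-negative, 127, 121 and 126 among green-only, 106, 94.5 and 88.4 among red-only, and 111, 116 and 109.7 among double-positive cells. The red-only arrays were below those of all other populations, which overlapped except that green-only arrays all lay above double-positive ones. The log2 difference from double-negative cells was -0.06 ± 0.08 (adjusted p = 0.67) in double-positive, -0.27 ± 0.08 (adjusted p = 0.029) in red-only and 0.09 ± 0.08 (adjusted p = 0.52) in green-only cells. The red-only call was lost without double-negative array A or B or red-only array B or C (adjusted p 0.055 to 0.12), and with the second probe set (adjusted p = 0.17). Anln, which encodes the ring scaffold anillin, passed in red-only cells too (-0.35 ± 0.10, adjusted p = 0.019) and not in double-positive cells (-0.25 ± 0.10, adjusted p = 0.077). Its red-only call was lost without double-negative array C or red-only array B or C (adjusted p 0.056 to 0.085).

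Of the 5 genes of the mitotic chromosome, 4 fell in double-positive cells and 1 with each reporter alone. Top2a, the topoisomerase that untangles sister chromatids, gave 290.1, 246 and 243 in double-negative, 212, 208 and 218 among green-only, 234, 185 and 172 among red-only, and 176, 177 and 173 among double-positive cells. Its double-negative arrays stood above all others, and red-only array A lay above the green-only arrays. Against double-negative cells, the difference on the log2 scale was -0.55 ± 0.11 (adjusted p = 0.0014) in double-positive, -0.40 ± 0.11 (adjusted p = 0.014) in red-only and -0.28 ± 0.11 (adjusted p = 0.085) in green-only cells. With the experiment as a block the green-only difference passed (adjusted p = 0.043). The red-only call was lost without double-negative array A or red-only array B or C (adjusted p 0.057 to 0.070). With a much dimmer second probe set the double-positive and red-only calls were both lost (adjusted p = 0.090 and 0.49).

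Mki67, the proliferation marker that coats mitotic chromosomes, gave 206, 195 and 206 in double-negative, 184, 199.6 and 182 among green-only, 193, 180.3 and 138 among red-only, and 124, 142 and 135 among double-positive cells. Double-positive arrays were below the double-negative and green-only ones, and red-only array C lay among them. The log2 difference was -0.59 ± 0.11 (adjusted p = 0.00096) in double-positive, -0.26 ± 0.11 (adjusted p = 0.11) in red-only and -0.10 ± 0.11 (adjusted p = 0.60) in green-only cells. Without red-only array A the red-only difference passed (adjusted p = 0.041). Smc4, an ATPase subunit of condensin, was at 161 ± 11.7 in double-negative, 164 ± 13.1 among green-only, 156 ± 7.68 among red-only and 121 ± 4.43 among double-positive cells. It fell in double-positive cells (-0.40 ± 0.08, adjusted p = 0.0021) and was at -0.04 and 0.02 in the red-only and green-only comparisons. The probe sets of Smc4 disagreed in a fit of every probe set on its own. A dimmer one was lower in double-positive (-0.35, adjusted p = 0.027) and red-only cells (-0.35, adjusted p = 0.038). Another was not called in any of these comparisons. Ncaph, the kleisin subunit of condensin I, fell from 57.4 ± 2.7 to 44.8 ± 2.73 (-0.33). It was also the gene of this group called in green-only cells (-0.25), a call lost without any of the double-negative arrays or green-only array C (adjusted p up to 0.14). The other core ATPase of condensin, Smc2, was at 84.9 ± 15.6 and 72.2 ± 9.13 (-0.21, adjusted p = 0.23). Without double-negative array A, which read 67.0 against 93.9 and 94.0 on the other double-negative arrays, the Smc2 difference passed (adjusted p = 0.016).

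Foxm1, a transcription factor of the G2 and M genes, gave 57.7, 68.6 and 64.5 in double-negative, 69.4, 82.7 and 65.4 among green-only, 56.9, 65.0 and 59.4 among red-only, and 50.7, 63.0 and 59.7 among double-positive cells. The arrays of all 4 populations overlapped, except that the green-only arrays lay above the double-positive and red-only ones. Its log2 difference came to -0.13 ± 0.11 (adjusted p = 0.41) in double-positive, -0.07 ± 0.11 (adjusted p = 0.73) in red-only and 0.18 ± 0.11 (adjusted p = 0.30) in green-only cells. The probe sets of this gene disagreed: in a fit of every probe set on its own, a dimmer one was lower in double-positive cells (-0.47, adjusted p = 0.035) and another was not (-0.11, adjusted p = 0.56).

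**Figure D3:**
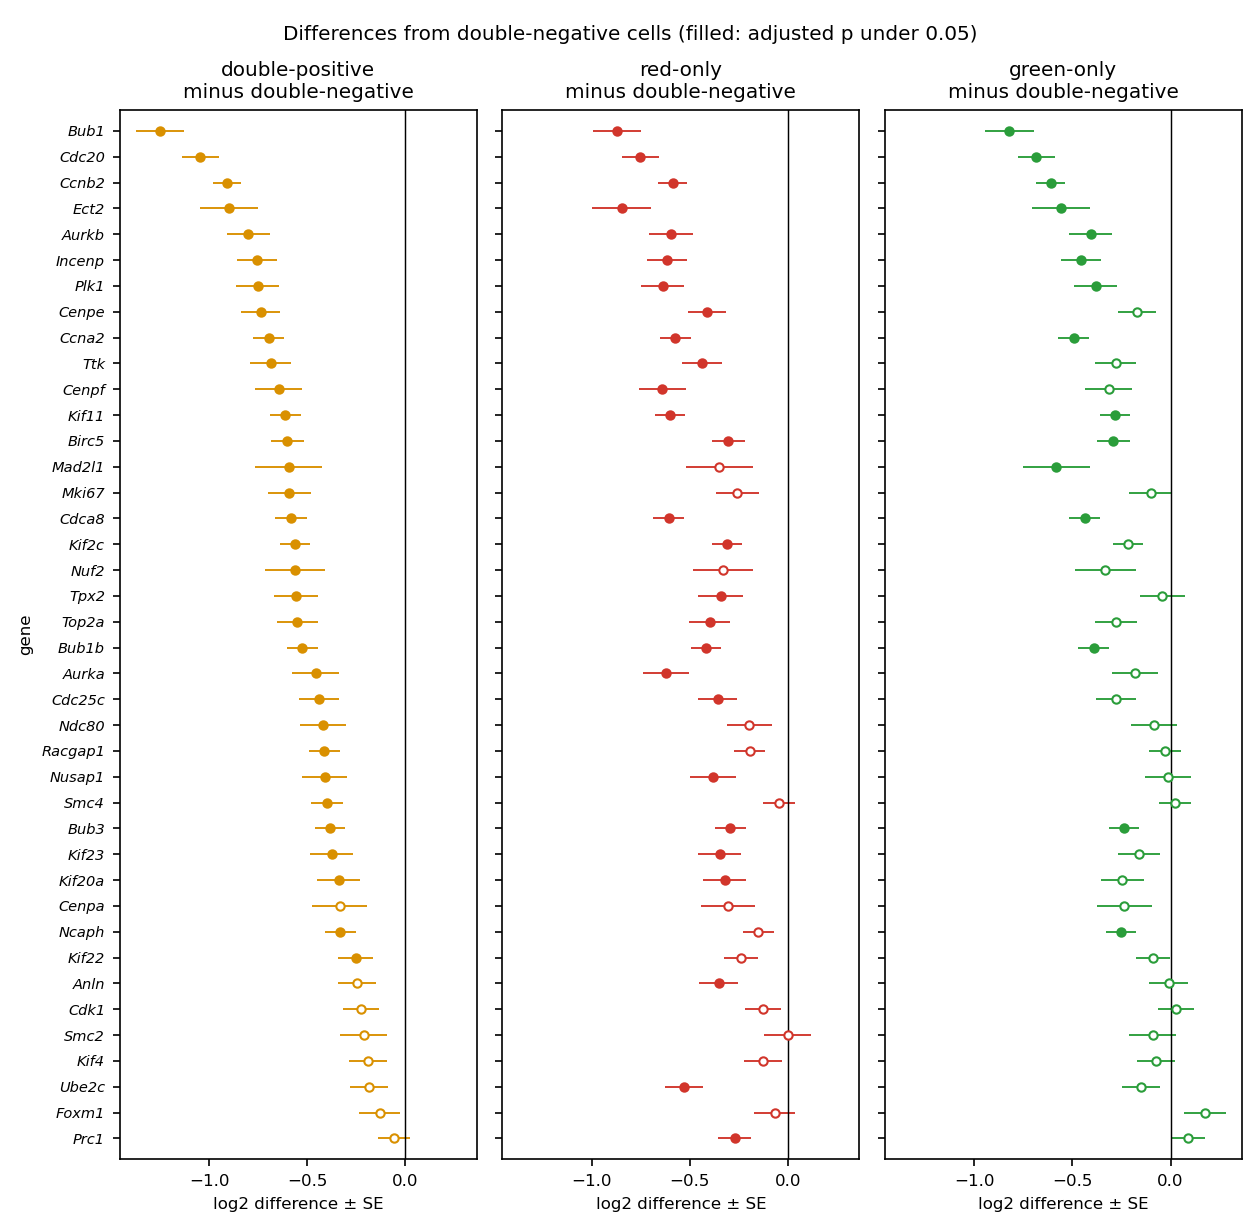
Log2 difference of each of the 40 genes from double-negative cells in each population with a reporter (double-positive left, red-only middle, green-only right); points are limma estimates, bars the SE, and filled points have an adjusted p under 0.05. Genes are ordered by the double-positive difference; all points of the left and middle panels lie below 0, and 36 of 40 in the right panel.

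The 4 populations took a common order in most genes. By mean log2 intensity, 28 of the 40 genes ran from double-negative through green-only and red-only to double-positive, an order that 7.53% of all genes tested share. In all, 36 were highest in double-negative cells (35.6% of all genes tested) and 4 in green-only cells. The lowest population was double-positive in 35 (27.9% of all genes tested) and red-only in 5. Of the 40 genes, 15 passed the test between double-negative and green-only cells, 2 between green-only and red-only cells, and 6 between red-only and double-positive cells, Ube2c being the one that was higher in the last.

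Double-positive cells were compared with each single-reporter population. Against green-only cells, 10 genes were lower in double-positive cells and none higher, where 2.77% of all genes tested were lower and 2.85% higher. The 10 were Ccnb2, Ttk, Cdc20, Cenpe, Kif11, Kif2c, Tpx2, Racgap1, Mki67 and Smc4, with log2 differences from -0.57 (Cenpe) to -0.30 (Ccnb2). Some of these genes had further probe sets past the filter, 12 in all, each fitted on its own. Of these 12, 10 had the same sign, and only 2, both of Cdc20, were called lower. In 24 genes the arrays did not overlap (10.9% of all genes tested), and the median was -0.29. Cenpe and Smc4 kept the call with each array left out, and the other 8 lost it at least once. With the experiment as a block the count was 16, with Aurkb, Birc5, Bub1, Cenpf, Foxm1 and Nusap1 added (adjusted p 0.011 to 0.042). It fell to 2 without double-positive array A, and was 4 or 5 without green-only array A or C or double-positive array B or C. Against red-only cells, 5 genes were lower (Ccnb2, Birc5, Cenpe, Kif2c and Smc4) and Ube2c was higher, where 6.15% of all genes tested were lower and 5.94% higher. The median was -0.12, and 10 genes did not overlap on the lower side (16.6% of all genes tested). Ccnb2 kept the call with each array left out, and the others lost it at least once. The other Smc4 probe sets, each fitted on its own, were not called against red-only cells (adjusted p = 0.99 and 0.13). Against green-only cells they were not called either (adjusted p = 0.19 and 0.49). The block gave 8 lower genes, with Bub1, Cdc20 and Mki67 added (adjusted p 0.014 to 0.048). Without any of 8 arrays the count was 3 or fewer (double-positive A 2, double-positive B 3, red-only A 1, red-only B 2, each of the double-negative arrays 3, green-only C 3).

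Red-only and green-only cells, each with 1 reporter, had few called differences. Kif11 (-0.32 ± 0.08, adjusted p = 0.045) and Prc1 (-0.36 ± 0.08, adjusted p = 0.032) were lower in red-only cells and no gene was higher, where 1.76% of all genes tested were lower and 1.32% higher. The median was -0.15, and 36 of the 40 differences were below 0, a share not computed over all genes tested. On the lower side 11 genes did not overlap (9.29% of all genes tested). With the experiment as a block 6 were lower: the same 2, with Aurka, Cenpf, Nusap1 and Anln (adjusted p 0.014 to 0.049). Neither call survived every left-out array: Kif11 was lost without any of 10 arrays (adjusted p up to 0.14) and Prc1 without any of 5 (adjusted p up to 0.11). Counts fell to 0 without green-only array A or C or red-only array B or C.

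Whether the eGFP difference depends on dsRed was tested by a contrast of differences, double-positive minus red-only against green-only minus double-negative. It was above 0 for Ube2c (0.49 ± 0.14, adjusted p = 0.038) and Cdca8 (0.46 ± 0.11, adjusted p = 0.020) and passed for no gene on the lower side, where 4.8% of all genes tested were higher and 5.67% lower. For Cdca8, eGFP went with a lower level among dsRed-negative cells (312 ± 20.9 against 229 ± 8.06) and was at nearly the same mean among dsRed-positive cells (203 ± 8.79 against 207 ± 16.4). No other gene of the 40 passed this test; with the block Bub1 and Ccna2 also passed above 0 and Smc4 below 0 (adjusted p = 0.039, 0.046 and 0.039). Both calls were lost without double-negative array A (adjusted p = 0.085 for Ube2c and 0.051 for Cdca8) or double-positive array B (0.094 and 0.054), and Ube2c also without 8 other arrays.

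Beyond the 40 genes, further lists of mitotic genes were read in the comparison of double-positive with double-negative cells. All 5 other condensin subunits fell, among them Ncapg (75.2 ± 6.87 to 27.7 ± 4.71, -1.33), Ncapd2 (-0.87) and Ncapd3 (-0.67). Of 14 cohesin and separase genes tested, 8 fell, led by Cdca5, which encodes sororin, the protector of cohesion (242 ± 16.1 to 85.0 ± 11.2, -1.47), Espl1, the separase gene (-0.93), and Sgo2a (-0.55). Of 22 other kinetochore genes 15 fell, with Cenpk (-0.74), Kntc1 (-0.69) and Cenpp (-0.66) at the front. Of 20 other spindle and midbody genes 14 fell, with Kif20b (-0.97), Psrc1 (-0.77) and Dlgap5 (-0.68) at the front. Of 12 genes controlling mitotic entry and exit, 8 fell, led by Fbxo5, which encodes EMI1, an inhibitor of the anaphase-promoting complex (-1.02), Cdc25a (-0.69) and Ccnf (-0.64). None of these lists had a gene that rose, where 17.6% of all genes tested were lower and 13.9% higher.

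For the anaphase-promoting complex itself the counts were not above those of all genes tested (17.6% lower, 13.9% higher): of 13 subunit and activator genes, Cdc26 fell (-0.44 ± 0.09, adjusted p = 0.0021), Anapc7 rose (0.27 ± 0.08, adjusted p = 0.021), and the median was 0.03. Of 6 DREAM and MuvB genes tested, which act on CHR promoters, Mybl2 fell from 86.9 ± 14.5 to 24.0 ± 6.25 (-1.71 ± 0.15, adjusted p = 2.8e-06), E2f4 (-0.52) and Tfdp1 (-0.50) fell, and none rose.

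Genes of other cell cycle phases were set beside the mitotic genes. Of 32 tested genes of DNA replication and S phase, double-positive cells had 29 below double-negative cells, red-only cells 21 and green-only cells 28, with medians of -0.84, -0.40 and -0.66. Over all genes tested, 17.6%, 12.7% and 11.4% were called lower in these comparisons. For the 40 mitotic genes the same medians were -0.54, -0.35 and -0.24. The 2 lists thus placed the single-reporter populations in opposite order. The red-only minus green-only median was 0.23 for the S phase genes, with none of the 32 below 0 and 2 called higher, Rrm2 (0.70) and Pcna (0.38), both used to supply or replicate DNA. For the mitotic genes it was -0.15, with 36 of 40 below 0 and 2 called lower. Of all genes tested, 1.32% were called higher and 1.76% lower in this comparison, and the share below 0 was not computed. No test compared the lists. On single arrays, the mean log2 deviation of the mitotic genes ran from -0.17 to -0.01 in red-only and from -0.05 to 0.11 in green-only cells, and that of the S phase genes from 0.04 to 0.10 and from -0.26 to -0.10. Thus the S phase ranges did not overlap, and on the mitotic side red-only array A lay above green-only array B.

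Of 17 genes of D cyclins and cell cycle inhibitors, 7 rose and 2 fell in double-positive cells, with a median of 0.18; over all genes tested, 13.9% were higher and 17.6% lower. Cdkn1c, which encodes the CDK inhibitor p57, was at 149 ± 33.4 in double-negative, 890.0 ± 237 in red-only, 1047 ± 216 in green-only and 2023 ± 144 in double-positive cells (3.74 ± 0.20, adjusted p = 2.6e-08). Cdkn2d, an inhibitor of CDK4 and CDK6, rose by 1.35 and Ccnd2, cyclin D2, by 1.31.

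**Figure D4:**
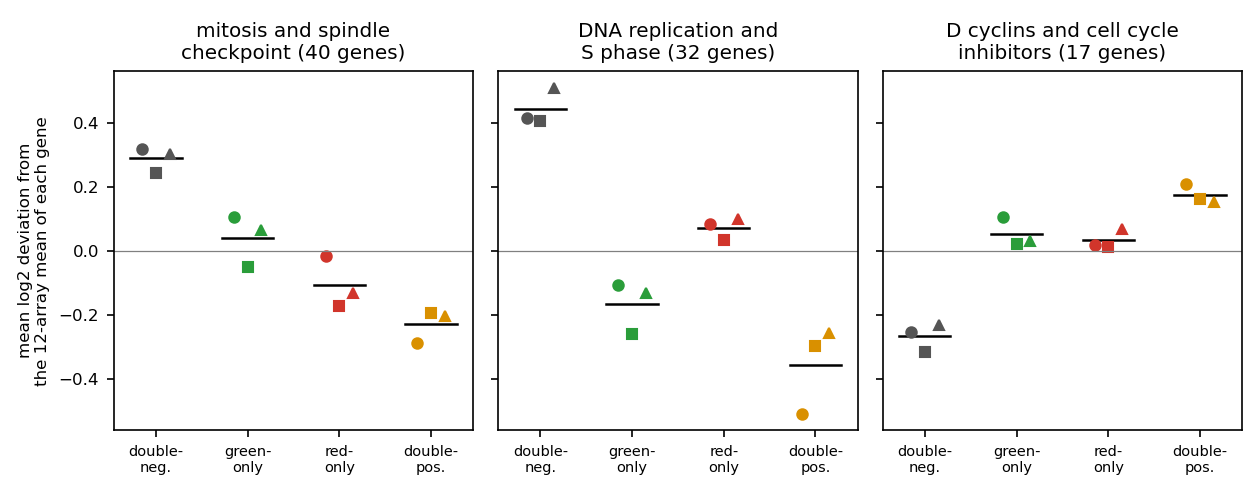
Mean log2 deviation of each list from the 12-array mean of its genes, by population; symbols are the arrays of experiments A, B and C and lines the mean of 3. Mitotic genes step down from double-negative to double-positive cells, S phase genes are higher in red-only than in green-only cells, and D cyclins and inhibitors are highest in double-positive cells.

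Several other properties of the samples moved with these differences, and their part in them was not tested. Pluripotent cell markers (9 genes) summed to 1500 to 1787 in double-negative cells and 162 to 357 in the others, where Nanog and Zfp42 were at or under the array median. Primitive blood markers (6 of 7 genes measured) summed to 1078 to 1972 in double-negative cells and 63.2 to 148 elsewhere, and endoderm markers (8 genes) to 1386 to 2192 in double-negative, 834 to 3410 in green-only and 191 to 487 in the remaining cells. Cardiomyocyte markers (8 genes) summed to 17590 to 22520 in double-positive, 9301 to 11470 in green-only, 2972 to 4625 in red-only and 302 to 525 in double-negative cells. Mesenchymal markers (8 genes) summed to 167 to 191 in double-negative cells and 378 to 974 elsewhere, with no overlap. Endothelial markers (8 genes) summed to 522 to 733 among red-only, 347 to 914 among green-only, 172 to 275 among double-negative and 225 to 319 among double-positive cells. Neural markers (8 genes, of which 6 passed the filter) summed to 117 to 126 among red-only cells and 131 to 185 elsewhere. Of these 8, Neurog2 and Zic1 were at or under the array median in every population. The actin 3′ to 5′ ratio was 1.55, 1.47 and 1.40 on double-positive arrays A, B and C. It was 1.36, 1.36 and 1.34 on double-negative arrays, with no overlap, and 1.32 to 1.48 on single-reporter arrays. The Gapdh ratio overlapped between double-positive (0.942 to 0.951) and double-negative arrays (0.91 to 0.97). Double-positive array A also had the highest 18S signal (793.5, against 170.3 to 462.7 on the others). Without that array 28 of the 40 genes were lower in double-positive than double-negative cells. Array medians ran from 6.29 to 6.73, and the number of arrays, 3 in each population, limits the precision.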

How the data were processed

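The series holds 12 Affymetrix mouse arrays, 3 in each of 4 sorted populations; groups and experiment letters came from the sample titles, since the protocol label writes the double-negative gate in a form that does not match the titles. The deposited values are linear probe set intensities; the submitters' processing notes name MAS5, and scaling is not given in the sources used here. The values ran from 2.09 to 8820.

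Of 45101 probe sets, 64 controls were left out. The annotation pairs 34945 probe sets with 1 gene and 932 with several, which were not used; 204 had a symbol without a current entry. Values were taken as log2(intensity + 4.095), the 25th percentile of all values, so fold changes of dim genes are understated. Genes with a mean log2 of at least 3.22 (the 40th percentile of the probe set means) were tested, 13698 in all, with limma 3.58.1 in R 4.3.3 on all 12 arrays (8 residual degrees of freedom), two-sided, with Benjamini-Hochberg adjustment over all genes tested and a threshold of 0.05. The 40 genes have 94 probe sets, and 28 of the genes have more than 1; the probe sets of Bub3, Cdca8 and Prc1 (_s_at) and of Cdc25c, Aurkb, Incenp, Kif2c and Kif22 (_x_at) can share probes with other transcripts.

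Arrays of the same experiment deviated together from their group means (r 0.12 to 0.42 over 18 pairs), which pairs the samples; the fit with the experiment as a block is given where it changes a call. The genes and lists were chosen with earlier results of these data known. Values of every array are given for 12 genes named beforehand and for the 3 largest and 3 smallest differences between double-positive and double-negative cells; further lists are represented by up to 3 called genes with the largest differences. The fit was tested on simulated data with independent noise on each array. That simulation does not cover the shared deviations of arrays from the same experiment.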

Additional observations from a re-analysis of the deposited data

Results flagged for a closer look

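For Ube2c the difference that went with eGFP was not the same in dsRed-positive as in dsRed-negative cells, by a contrast of 0.49 ± 0.14 on the log2 scale (adjusted p = 0.038, limma). Its intensity was 324 ± 10.9 in double-negative, 292 ± 14.3 among green-only, 225 ± 30.8 among red-only and 285 ± 22.9 among double-positive cells (SD, n = 3). For Cdca8 the same contrast was 0.46 ± 0.11 (adjusted p = 0.020), with 312 ± 20.9, 229 ± 8.06, 203 ± 8.79 and 207 ± 16.4 in the same order. With the experiment as a block 4 genes passed this contrast on the higher side, Bub1 (adjusted p = 0.039) and Ccna2 (adjusted p = 0.046) besides these, and Smc4 passed on the lower side (adjusted p = 0.039). Without the block, 2 of the 40 genes passed on the higher side and 0 on the lower side. Of all genes tested, 4.8% were higher and 5.67% lower, so the count of 2 is near the background. Neither the Ube2c nor the Cdca8 call held throughout when each array was left out in turn. The cause was not tested.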

How the results depend on the processing

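Over the 12 fits that each left out 1 array, the count of lower genes ran from 27 to 32 for double-positive, 18 to 28 for red-only and 8 to 16 for green-only against double-negative cells. It ran from 1 to 6 for double-positive against red-only (higher genes 0 to 1), 2 to 12 for double-positive against green-only, and 0 to 2 for red-only against green-only cells. For the contrast of differences it ran from 0 to 1 lower and 0 to 3 higher genes.

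Replacing each probe set by the second of its gene gave 9 lower genes for green-only against double-negative, 3 lower and 2 higher for double-positive against red-only, 3 for double-positive against green-only, 0 for red-only against green-only cells, and 19 in the F-test; many second probe sets are dimmer. With it, Bub3 reversed between double-positive and red-only cells (0.27, adjusted p = 0.038, against -0.09 as reported). With a pseudocount of 1, double-positive against red-only gave 2 lower and 0 higher genes, red-only against green-only 1 lower gene, and the contrast 1 higher gene. Fitting only the 6 arrays compared gave 2 and 0 genes for double-positive against red-only, 2 for double-positive against green-only and 0 for red-only against green-only cells. An intensity trend with robust variance gave 3 for double-positive against red-only cells. Centring arrays on their medians gave 0 higher genes there, 1 lower gene for red-only against green-only cells and 1 higher gene in the contrast. With the experiment as a replicate block, lower genes numbered 8 (double-positive against red-only), 16 (double-positive against green-only) and 6 (red-only against green-only), and the contrast had 1 lower and 4 higher genes. The contrast also had 1 lower gene with the median as pseudocount, with quantile normalization and with no filter. The cause of these changes was not tested.

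The block raised the other counts to 33, 30 and 17 for the 3 comparisons with double-negative cells and ended no call in the 6 comparisons of populations. Of 6358 recomputed values of single genes, 6013 stayed on the same side of the threshold, 267 lost the call and 77 gained it. Besides these, 1 reversed its sign and was called in the main or the alternative fit. Changes of sign between uncalled values are among the 6013 and were not counted. The calls that held in every alternative numbered 21 for double-positive, 14 for red-only and 5 for green-only against double-negative cells. An alternative added after the data were seen fitted every probe set on its own: of 30 other probe sets of the 32 genes lower in double-positive cells, 28 had the same sign, 20 were called lower and none was called higher. In the other comparisons fewer were called in the same direction. Against double-negative cells these were 12 of 25 for red-only and 5 of 16 for green-only cells. They were 0 of 4 for double-positive against red-only, 2 of 12 for double-positive against green-only and 0 of 3 for red-only against green-only cells. Dim probe sets, near the 6.52 median of all values, carry the least information.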
